A study of Homo sapiens with 26 samples.

Results

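The 26 libraries of the series were divided by their own SMAD4 transcript level, whatever cell line they were labelled with, so that membership was chosen by a measured value. Libraries with SMAD4 under 1 TPM (length-normalized transcript abundance) were called SMAD4-negative and those with 1 TPM or more SMAD4-positive, which gave 12 SMAD4-negative and 14 SMAD4-positive libraries. Each library holds polyadenylated RNA from a single cell-derived cell line (SCDCL), that is, 1 clone grown from 1 cell of BxPC3 or Panc-1, both established lines of pancreatic ductal adenocarcinoma. Of the SMAD4-negative libraries, 5 were labelled BxPC3 and 7 Panc1, and of the SMAD4-positive libraries 7 carried each label, so the division does not follow the labels. No SCDCL was sequenced a second time. The spread given here is therefore that between clones. Gemcitabine is given as treatment in the labels of both groups alike, whereas the methods describe gemcitabine only in separate viability assays. All clones were grown in the same medium, and neither group carries an engineered allele.

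SMAD4 is the common partner of the receptor-activated SMAD proteins. TGF-beta, activin and BMP ligands bind pairs of serine/threonine kinase receptors, which phosphorylate SMAD2 and SMAD3 or SMAD1 and SMAD5. These proteins enter the nucleus with SMAD4 and act on target genes such as SMAD7. In pancreatic cancer SMAD4 is one of the most frequently lost tumor suppressors. BxPC3 is known to carry a homozygous deletion of it, whereas Panc-1 expresses the protein. The labels go against this in 7 SMAD4-negative libraries labelled Panc1 and 7 SMAD4-positive libraries labelled BxPC3. Labels may therefore have been exchanged between libraries, in which case the groups would be the cell lines themselves. The paper sequenced 12 SCDCLs of BxPC3 and 14 of Panc-1, the same numbers as the SMAD4-negative and SMAD4-positive libraries here. Whether labels were exchanged was not tested. From these files, SMAD4 status and cell line of origin cannot be told apart, and every difference given here is one between the groups and not an effect of SMAD4. TGF-beta signaling is also known as an inducer of epithelial-mesenchymal transition (EMT), in which E-cadherin is lost and vimentin is gained.

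SMAD4 (ENSG00000141646, chromosome 18) was between 0 and 0.0440 TPM in the SMAD4-negative libraries, with at most 3.98 estimated counts. In the SMAD4-positive libraries it was between 28.1 and 52.2 TPM, with a median of 32.5. No library lay between 0.0440 and 28.1 TPM, so any threshold in that interval divides the libraries in the same way. Library depth overlapped between the groups, with 27144920 to 34945608 estimated counts in the SMAD4-negative and 27035724 to 32601392 in the SMAD4-positive libraries. The number of genes with at least 5 estimated counts was 16376 to 17641 in the former and 15976 to 16661 in the latter. Both kinds of library expressed epithelial keratins. Defining markers of other cell types were at or near 0, since the 12 pancreatic acinar and endocrine markers together reached at most 1.33 CPM (counts scaled to library size) in any library. PTPRC of leukocytes and VWF of the endothelium were under the filter described below. CDH5 and CD68, which are known as endothelial and macrophage markers, passed it and are given with their lists. In bulk RNA, fewer cells of a type and less RNA per cell cannot be told apart.

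Because the groups were made from a measured transcript, differences between them are given as a description, with ranges and effect sizes and no p-value. Expression is in CPM after normalization between libraries, and the log2 difference is the mean of log2(CPM + 1) in the SMAD4-positive libraries minus that in the SMAD4-negative libraries, with its standard error over clones (SE). A gene was said to separate the groups when their ranges did not overlap and the log2 difference was at least 1 in either direction. SMAD4 itself was left out. Where ranges are set against each other, the SMAD4-negative range comes first. Of 15120 genes that averaged 1 CPM or more in either group, 3954 (26.2%) separated the groups, 1948 (12.9%) being higher in the SMAD4-positive and 2006 (13.3%) higher in the SMAD4-negative libraries. Of these, 1862 had a log2 difference of at least 2 and 260 of at least 5. Of the remaining genes, 1193 differed by at least 1 but overlapped, and 9973 (66.0%) of all genes measured differed by less than 1. The median log2 difference over all genes was 0.030. Expressed at 10 CPM or more in every library of the one group and under 1 CPM in every library of the other were 91 genes on in SMAD4-positive and 121 genes on in SMAD4-negative clones.

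**Figure D1:**
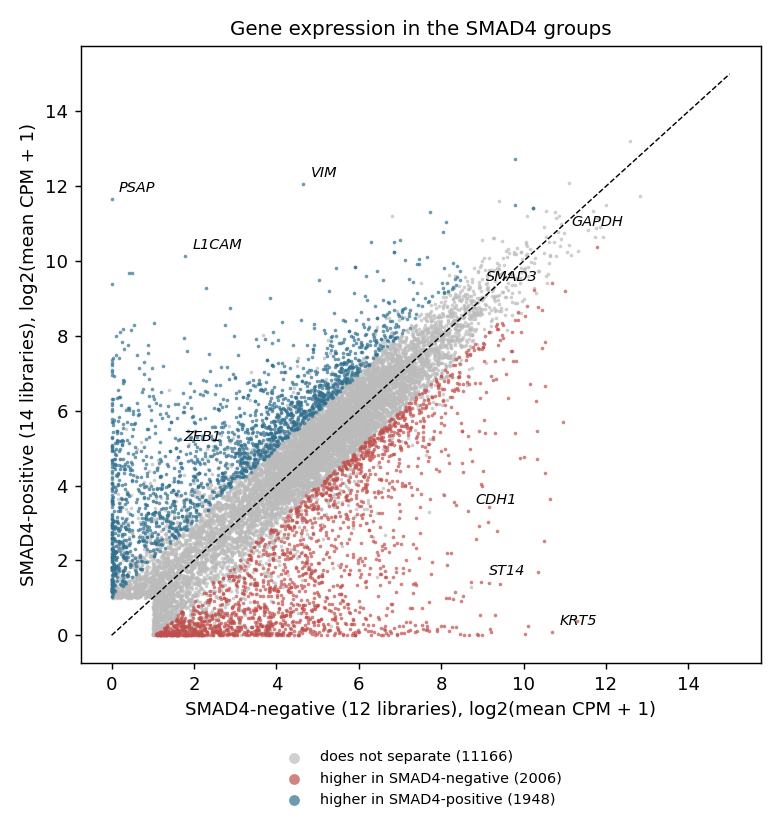
Mean expression of each of 15120 genes in the 12 SMAD4-negative (x axis) and 14 SMAD4-positive libraries (y axis), both as log2(mean CPM + 1). Colored points are the 2006 and 1948 genes that separate the groups, grey points are the others, and the dashed line marks equal means.

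Vimentin (VIM, chromosome 10), the intermediate filament of mesenchymal cells, was at 1.66 to 82.4 CPM (median 12.01) in the SMAD4-negative libraries and 3276 to 5347 CPM (median 4092) in the SMAD4-positive libraries. Its log2 difference was 8.07 ± 0.46, a 176-fold ratio of means. E-cadherin (CDH1, chromosome 16), the adhesion protein of epithelial junctions, ran the other way, with 268 to 554 CPM (median 414) against 0.958 to 23.5 CPM (median 7.67) and a log2 difference of -5.68 ± 0.32. Neither gene overlapped between the groups. The widest spread lay within the group in which the gene was low, since VIM varied between 1.66 CPM in library 5 and 82.4 CPM in library 4, both SMAD4-negative and labelled Panc1. Keratin 5 (KRT5, chromosome 12), a filament of basal and squamous epithelium, was at 903 to 3581 CPM (median 1492) in the SMAD4-negative libraries and at most 0.303 CPM in the SMAD4-positive libraries, with a log2 difference of -10.50 ± 0.17. Prosaposin (PSAP, chromosome 10), the precursor of the lysosomal saposins, had 0 counts in every SMAD4-negative library and 1908 to 5362 CPM (median 2951) in the SMAD4-positive libraries. With 3 counts per library as the limit that a count of 0 allows, PSAP was at least 32619-fold higher in the SMAD4-positive clones.

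**Figure D2:**
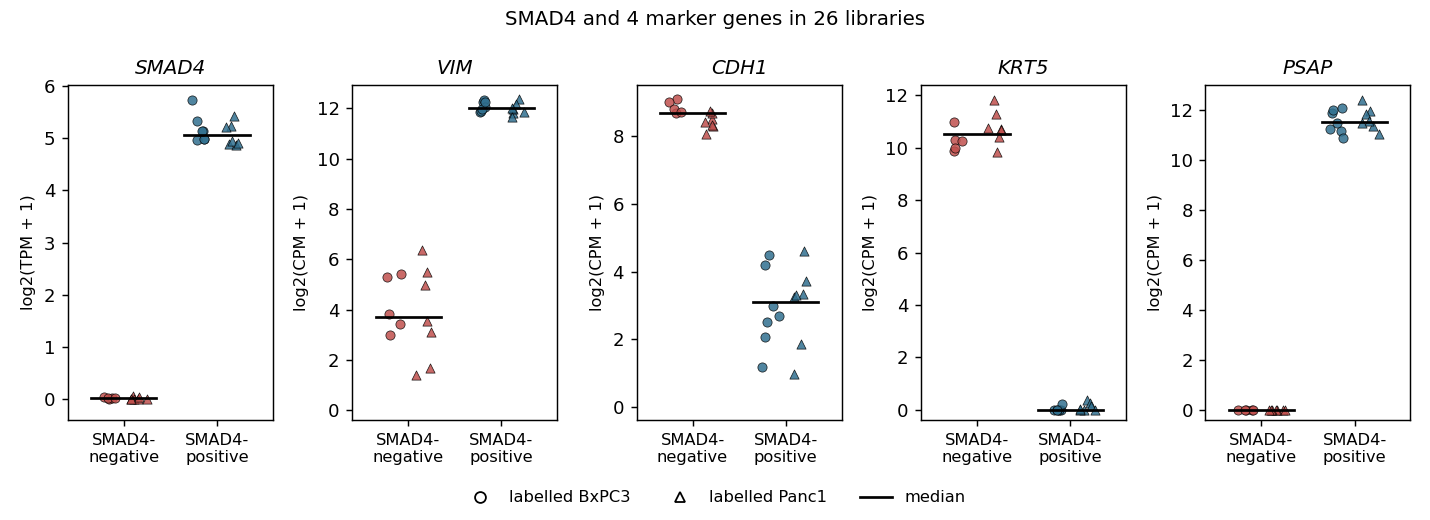
Level of SMAD4 as log2(TPM + 1) and of VIM, CDH1, KRT5 and PSAP as log2(CPM + 1), with 1 point per library, circles for the label BxPC3 and triangles for Panc1, and lines at group medians. In each panel the SMAD4-negative and SMAD4-positive libraries do not overlap, under either label.

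Both labels held libraries of each group, so the difference was also computed within each label. If labels were exchanged between libraries, this compares subsets of the same groups and is no check across cell lines, and the counts that follow are to be read with that limit. In the libraries labelled BxPC3, 4704 of 15207 genes (30.9%) separated 5 SMAD4-negative from 7 SMAD4-positive clones. In those labelled Panc1, 4508 of 15087 genes (29.9%) separated 7 from 7. Ranges over fewer libraries overlap less easily, so these shares cannot be set against the share over all libraries. Of the 15120 genes tested over all libraries, 3791 separated within both labels in the same direction, and 0 separated in opposite directions. Genes whose ranges do not overlap over all libraries cannot differ in sign between the labels, so the shared sign of the 3954 follows from their choice. For 3357 of them the within-label differences lay within 0.5 log2 units of each other, and the median gap was 0.21. VIM had log2 differences of 7.90 under the BxPC3 label and 8.18 under the Panc1 label, and CDH1 had -6.01 and -5.44. A test of whether the difference depends on the label, which is not the contrast that made the groups, used the interaction term of edgeR's quasi-likelihood model over 17455 genes with Benjamini-Hochberg adjustment. It called 0 genes (0%) at an adjusted p of 0.05, with a smallest adjusted p of 0.271. Before adjustment, 1356 genes (7.77%) had p under 0.05. Limma called 0 genes (1469 before adjustment), and DESeq2 called 15 of 19668 (1585 before adjustment). Among the 15, chosen here after their values were seen, EML1, a microtubule-associated protein, was at 0.275 to 1.16 CPM in SMAD4-negative libraries labelled BxPC3 and 0.042 to 0.504 CPM in those labelled Panc1, and at 25.4 CPM or more in every SMAD4-positive library. An effect of the label smaller than these tests detect may be present.

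**Figure D3:**
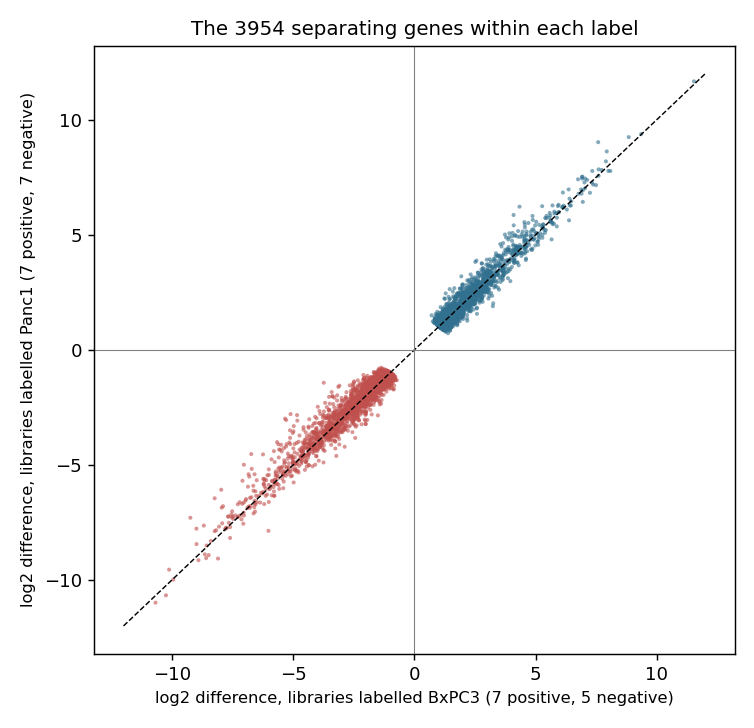
Log2 difference (SMAD4-positive minus SMAD4-negative) of the 3954 separating genes, computed in the libraries labelled BxPC3 (x axis) and in those labelled Panc1 (y axis), which are different libraries. Points lie around the dashed line of equality, and their shared sign follows from how the genes were chosen.

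To describe the separating genes by function, 25 lists with 574 genes were used, of which 474 passed the filter on low values and 100 did not. A total of 214 listed genes separated the groups (45.1% against 26.2% of all genes tested), 136 being higher in the SMAD4-negative and 78 in the SMAD4-positive clones. These lists were chosen with earlier results of these data known, so that this share is not independent evidence. Genes were named from each list by the size of their difference, and further members given beside them were chosen after their values were seen.

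Genes of epithelial adhesion were mostly higher in the SMAD4-negative clones. Of 29 members, 18 separated in that direction, 2 in the other and 9 did not (69.0% separating against 26.2% of all genes). The median log2 difference was -2.34 (0.030 over all genes tested). Desmosomal genes were among those higher in the SMAD4-negative clones. Desmoglein 3 (DSG3) was at 67.02 to 163 CPM (median 102) in the SMAD4-negative libraries and at most 0.126 CPM in the SMAD4-positive libraries. Desmoplakin (DSP), which links desmosomes to keratins, was at 682 to 1073 CPM (median 881) against 0.674 to 122 CPM (median 28.2), with a log2 difference of -5.33 ± 0.55. EPCAM, an epithelial adhesion molecule, was at 180.2 to 419 CPM (median 258) in the SMAD4-negative libraries and remained detectable at 6.32 to 21.4 CPM (median 11.3) in the SMAD4-positive libraries. Not every junction gene followed. Occludin (OCLN) and claudin 3 (CLDN3) of the tight junction separated in the other direction, OCLN with 9.42 to 16.7 CPM (median 12.8) against 21.5 to 96.03 CPM (median 60.8) and CLDN3 with at most 0.594 CPM against 2.36 to 17.9 CPM (median 11.04). TJP1, the scaffold protein ZO-1, overlapped, with a log2 difference of -0.35 ± 0.13.

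Regulators of the epithelial state showed the same direction. Of 20 tested, 14 were higher in the SMAD4-negative clones and 1 in the SMAD4-positive clones (75.0% separating against 26.2% of all genes). The median log2 difference was -3.47. ST14, the membrane protease matriptase, was at 342 to 639 CPM (median 482) against 0.247 to 3.94 CPM (median 1.30), and its log2 difference was -7.67 ± 0.18. A transcription factor of stratified epithelium was among them. TP63, which encodes the p63 protein of basal epithelial cells, was at 142 to 229 CPM (median 187) against at most 0.881 CPM. ESRP1, a splicing regulator of epithelial transcripts, had a log2 difference of -6.00 ± 0.12, whereas its relative ESRP2 overlapped, with -0.84 ± 0.11. GRHL3, a grainyhead transcription factor, was the member higher in SMAD4-positive clones, with 0.174 to 3.16 CPM (median 0.874) against 4.34 to 58.4 CPM (median 21.7).

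The hexamer CAGGTG, an E-box that the EMT repressors ZEB1, SNAI1 and SNAI2 can bind, was searched on both strands (CAGGTG or CACCTG) in the 250 bases before the transcription start of each gene in the RefSeq promoter table (GRCh38.p14). It was present in 4781 of 27305 promoters (17.5%). Among protein-coding genes tested, 291 of 1370 promoters of genes higher in the SMAD4-negative clones held it (21.2%), against 207 of 1312 for genes higher in the SMAD4-positive clones (15.8%) and 1232 of 8163 for the others (15.1%). Some lists were also searched, and their shares count every member with a promoter, whether or not it passed the filter or separated. Of the lists searched, the squamous and cornified envelope list described below had the largest share, 11 of 19 promoters (57.9%). Adhesion had 6 of 18 (33.3%), regulators 4 of 10 (40.0%) and mesenchymal genes 2 of 20 (10.0%). Of the 50 genes of the adhesion and regulator lists, 28 had a promoter in the table and 10 of these held the hexamer. They included OCLN and GRHL3, which were higher in the SMAD4-positive clones, and TJP1 and DSC2, which did not separate, each with 1 match. CDH1 had no entry. The promoters of the separating members with at least 2 matches are printed here with the matches in capitals, 5′ to 3′ in the direction of the gene, and were chosen after their values were seen. They are DSP (chr6:7541421-7541670, plus strand, 2 matches), DSG2 of the desmosome (chr18:31497927-31498176, plus strand, 2 matches), the polarity gene CRB3 (chr19:6464021-6464270, plus strand, 5 matches) and AP1M2, an adaptor subunit for sorting to the basolateral membrane (chr19:10587313-10587562, minus strand, 3 matches).
DSP: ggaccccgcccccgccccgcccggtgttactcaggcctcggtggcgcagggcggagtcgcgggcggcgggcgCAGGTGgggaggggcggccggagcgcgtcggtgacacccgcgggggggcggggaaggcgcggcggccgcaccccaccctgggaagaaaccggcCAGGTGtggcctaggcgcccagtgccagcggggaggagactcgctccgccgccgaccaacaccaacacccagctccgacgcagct
DSG2: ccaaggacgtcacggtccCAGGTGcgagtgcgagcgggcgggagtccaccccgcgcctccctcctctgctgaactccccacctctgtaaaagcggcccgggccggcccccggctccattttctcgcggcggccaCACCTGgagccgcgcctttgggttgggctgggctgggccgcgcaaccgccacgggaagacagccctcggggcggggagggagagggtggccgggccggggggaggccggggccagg
CRB3: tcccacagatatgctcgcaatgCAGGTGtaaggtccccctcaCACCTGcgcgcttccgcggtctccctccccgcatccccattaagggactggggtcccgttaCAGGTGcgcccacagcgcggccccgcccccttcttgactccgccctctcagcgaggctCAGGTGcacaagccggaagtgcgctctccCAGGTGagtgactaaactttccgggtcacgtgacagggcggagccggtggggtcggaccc
AP1M2: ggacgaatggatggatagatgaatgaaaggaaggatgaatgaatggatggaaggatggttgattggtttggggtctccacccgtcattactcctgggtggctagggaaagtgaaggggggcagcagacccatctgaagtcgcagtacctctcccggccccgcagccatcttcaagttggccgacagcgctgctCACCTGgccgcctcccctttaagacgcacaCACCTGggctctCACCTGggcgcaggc
The 5 matches of CRB3 were the highest number in this set. CRB3 itself was at 8.67 to 19.8 CPM (median 13.8) in the SMAD4-negative libraries and at most 0.412 CPM in the SMAD4-positive libraries, and AP1M2 was at 42.01 to 57.6 CPM (median 50.8) against 2.31 to 23.5 CPM (median 10.9). DSG2 was at 682 to 1251 CPM (median 953) against 2.02 to 62.2 CPM (median 22.1). A match is a description of the sequence and not of binding.

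Of 16 keratins tested, 7 were higher in SMAD4-negative and 2 in SMAD4-positive clones (56.25% separating against 26.2% of all genes). The other 7 did not separate, among them KRT4, KRT15 and KRT16. KRT17, a keratin of basal and activated epithelium, was at 1596 to 4580 CPM (median 2337) in the SMAD4-negative libraries and at most 0.68 CPM in the SMAD4-positive libraries, with the largest log2 difference in that direction among the genes named by size (-10.86 ± 0.14). KRT7, a ductal keratin, was at 1050 to 2158 CPM (median 1421) against 9.38 to 28.3 CPM (median 17.96). KRT6A had 0 counts in every SMAD4-positive library and 33.4 to 891 CPM (median 365) in the SMAD4-negative libraries, and since KRT6A shares most of its sequence with KRT6B and KRT6C, its estimate is uncertain. Of the keratins of simple epithelium, KRT8, KRT18 and KRT19 did not separate the groups, unlike KRT7. KRT8 was at 402 to 1018 CPM (median 562) against 998 to 5157 CPM (median 2721), and KRT19 was at 1023 to 2670 CPM (median 1703) against 471 to 1776 CPM (median 1160). Higher in the SMAD4-positive clones was KRT80, with 9.98 to 38.5 CPM (median 17.5) against 99.99 to 355 CPM (median 208).

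The squamous and cornified envelope list was the most one-sided of all 25. Of 20 members tested, 19 were higher in the SMAD4-negative clones and none in the SMAD4-positive clones. TGM1 was the member that did not separate. The median log2 difference was -4.85, and 95.0% separated against 26.2% of all genes. Genes of the hemidesmosome, which anchors basal cells to the basement membrane, stood among the 19. COL17A1 was at 96.6 to 1092 CPM (median 355) against 0 to 1.56 CPM (median 0.369). The integrin partner ITGB4 was at 960.3 to 1768 CPM (median 1222) and was still expressed at 28.2 to 203 CPM (median 68.6) in the SMAD4-positive libraries. S100A2, a calcium-binding protein of basal keratinocytes, was at 806 to 2132 CPM (median 1385) against 2.34 to 10.99 CPM (median 4.60). SCEL, a protein of the cornified envelope, had 0 counts in each SMAD4-positive library.

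Mesenchymal genes did not move as a block. Of 26 tested, 6 were higher in the SMAD4-positive clones, 6 in the SMAD4-negative clones and 14 did not separate. The share that separated was 46.2% against 26.2% of all genes, and the median log2 difference was 0.04. With VIM went MMP2, a gelatinase, at 60.3 to 363 CPM (median 154) in the SMAD4-positive libraries and at most 0.0855 CPM in the others. SPARC, a matrix glycoprotein, was at 0.0379 to 0.985 CPM (median 0.401) against 7.97 to 474 CPM (median 27.6). S100A4, also known as fibroblast-specific protein, was at 4.23 to 12.4 CPM (median 6.22) against 88.7 to 346 CPM (median 148). Matrix genes that are also used as mesenchymal markers ran the other way. Fibronectin (FN1) was at 23.6 to 186 CPM (median 79.3) in the SMAD4-negative libraries and 2.35 to 8.56 CPM (median 3.64) in the SMAD4-positive libraries. FSTL1, a secreted glycoprotein, was at 201 to 525 CPM (median 284) against 0.184 to 3.16 CPM (median 1.01), and the collagenase activator MMP14 was at 429 to 839 CPM (median 612) against 17.02 to 66.1 CPM (median 42.5). N-cadherin (CDH2), the usual counterpart of CDH1, overlapped, with 3.04 to 18.6 CPM (median 7.92) against 8.29 to 409 CPM (median 35.9).

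Transcription factors of EMT were also divided. Of 10 tested, 3 were higher in the SMAD4-positive and 2 in the SMAD4-negative clones (50.0% separating against 26.2% of all genes). ZEB1 (chromosome 10), a repressor of CDH1, was at 0.355 to 3.46 CPM (median 1.85) in the SMAD4-negative and 23.95 to 36.4 CPM (median 32.2) in the SMAD4-positive libraries, with a log2 difference of 3.49 ± 0.15. FOXC2 had 0 counts in every SMAD4-negative library and 18.3 to 49.96 CPM (median 29.2) in the SMAD4-positive libraries, which is at least 304-fold higher. SNAI1 separated in the same direction (2.28 ± 0.13). SNAI2, which encodes Slug, was on the opposite side, at 42.2 to 113 CPM (median 72.1) in the SMAD4-negative libraries and at most 1.85 CPM in the SMAD4-positive libraries. KLF8 also was higher in SMAD4-negative clones, with a log2 difference of -2.85 ± 0.13. TCF3 (E2A) did not overlap but differed by 0.80 ± 0.06, under the size set for separation.

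Of 43 components of the TGF-beta and BMP pathway tested, 13 were higher in the SMAD4-positive clones, 5 were higher in the SMAD4-negative clones and 25 did not separate. The share that separated was 41.9% against 26.2% of all genes, and the median log2 difference was 0.10. Ligands were found on both sides. INHBB, which encodes a subunit of activin B, was at most 0.256 CPM in the SMAD4-negative libraries and 52.4 to 310.2 CPM (median 143) in the SMAD4-positive libraries. INHBA, the subunit of activin A, was the opposite, with 17.3 to 219.9 CPM (median 59.7) against 0.295 to 11.3 CPM (median 1.20). Follistatin (FST), a secreted protein that binds activins, was at 531 to 1700 CPM (median 1050) in the SMAD4-negative libraries and at most 0.503 CPM in the SMAD4-positive libraries, a log2 difference of -9.80 ± 0.16. TGFB1 was 217 to 466 CPM (median 349) against 78.1 to 120.3 CPM (median 93.5), higher in the SMAD4-negative clones.

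Among receptors, TGFBR1 overlapped between the groups, with 28.2 to 115 CPM (median 51.8) against 31.1 to 61.8 CPM (median 43.3), and had a log2 difference of -0.30 ± 0.16. TGFBR2 was at 161 to 395 CPM (median 249.9) against 41.6 to 174 CPM (median 80.1). Its log2 difference was -1.63 ± 0.19, but the highest SMAD4-positive library lay above the lowest SMAD4-negative one. BMPR2, the type II receptor of BMPs, separated (1.08 ± 0.09), and BMPR1B did so in the other direction (-2.94 ± 0.09).

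Of the SMAD proteins themselves, SMAD2 (chromosome 18) was at 26.99 to 39.4 CPM (median 34.9) against 65.2 to 109.9 CPM (median 85.99), with a log2 difference of 1.28 ± 0.07. SMAD3 (chromosome 15), its partner, was at 218 to 698 CPM (median 501) against 529.96 to 711 CPM (median 624) and overlapped. The inhibitory SMADs were both higher in the SMAD4-positive clones. SMAD7 (chromosome 18) was at 5.03 to 12.6 CPM (median 6.93) against 31.3 to 69.4 CPM (median 49.3), a log2 difference of 2.56 ± 0.13. SMAD6 was at 1.99 to 15.5 CPM (median 4.30) against 17.3 to 67.2 CPM (median 45.4), a log2 difference of 2.76 ± 0.29. Known target genes of the pathway were unequal. CCN2, a matricellular growth factor, was at 11.99 to 73.2 CPM (median 35.9) in the SMAD4-negative and 104 to 615 CPM (median 211) in the SMAD4-positive libraries, a log2 difference of 2.64 ± 0.30. PMEPA1, which is also induced by TGF-beta, did not separate, with 108 to 393 CPM (median 205) against 143 to 339.6 CPM (median 214) and a log2 difference of 0.08 ± 0.20. The targets of BMP signaling ID2 and ID3 were higher in the SMAD4-positive clones and at most 1.69 CPM in the others, whereas ID1 overlapped and its mean was higher in SMAD4-negative clones (-1.35 ± 0.18).

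EGFR (log2 difference -0.30 ± 0.10) overlapped between the groups. Of its ligands, AREG, BTC, HBEGF and TGFA separated and EREG and EGF did not. AREG (amphiregulin) was at 49.9 to 549.99 CPM (median 121) against 0 to 18.01 CPM (median 0.232). TGFA was at 76.6 to 287 CPM (median 158) against 0.345 to 5.89 CPM (median 1.27), and HBEGF was at 34.02 to 461 CPM (median 102.5) against 2.58 to 23.98 CPM (median 6.02). Over the EGFR list, 6 of 13 were higher in SMAD4-negative and 2 in SMAD4-positive clones (61.5% separating against 26.2% of all genes). ERRFI1, a feedback inhibitor of EGFR, was higher in the SMAD4-positive clones, with 102.6 to 194 CPM (median 163) against 376 to 737 CPM (median 500.2). Among other receptor tyrosine kinases, 4 of 22 were higher in SMAD4-negative and 5 in SMAD4-positive clones (40.9% separating against 26.2% of all genes). FGFR3 was at 44.9 to 591 CPM (median 192) against 2.55 to 22.1 CPM (median 8.50), while its relative FGFR1 was at 8.41 to 22.3 CPM (median 16.5) against 44.3 to 94.1 CPM (median 60.2). RET had 0 counts in every SMAD4-negative library and 1.20 to 43.8 CPM (median 8.08) in the SMAD4-positive libraries. MET overlapped.

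The RAS, RAF and ERK list lay below the background of 26.2%, with 4 of 24 members separating. DUSP4 and DUSP6, phosphatases that inactivate ERK and are induced by it, were higher in the SMAD4-negative clones. DUSP4 was at 153 to 434 CPM (median 275) against at most 0.512 CPM, and DUSP6 was at 89.5 to 155 CPM (median 128) against 5.41 to 19.9 CPM (median 8.29). ETV4 and ETV5, related transcription factors downstream of ERK, separated in opposite directions, ETV4 with -1.92 ± 0.19 and ETV5 with 1.24 ± 0.15. Of 13 integrins, 3 were higher in SMAD4-negative and 1 in SMAD4-positive clones (30.8% separating against 26.2% of all genes), and 9 did not separate. The integrins ITGA6 and ITGB4 are not in this count. Both stood in the squamous list and were higher in the SMAD4-negative clones. ITGB6 was at 24.2 to 60.96 CPM (median 52.5) against at most 0.964 CPM. ITGB5 was at 80.5 to 239 CPM (median 154) against 419 to 1106 CPM (median 657). The common chain ITGB1 overlapped (-0.62 ± 0.11).

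Of 34 inflammatory genes tested in the NF-kB list, 15 were higher in SMAD4-negative clones, 3 in SMAD4-positive clones and 16 did not separate. The share that separated was 52.9% against 26.2% of all genes, and the median log2 difference was -1.60. IL1A was at 117 to 310.4 CPM (median 188) against at most 0.22 CPM, and IL1B was at 52.1 to 289 CPM (median 98.7) against at most 0.582 CPM. TNFRSF6B, a decoy receptor for FAS ligand, was at 17.7 to 326 CPM (median 138) against at most 1.04 CPM. PTGS2, the inducible cyclooxygenase, had 0 counts in every SMAD4-positive library and 22.2 to 246 CPM (median 65.7) in the SMAD4-negative libraries. The chemokine CCL2 was the opposite, at 0.937 to 144 CPM (median 16.6) in the SMAD4-positive libraries and at most 0.297 CPM in the others. CSF1, a growth factor of macrophages, went with it, at 2.67 to 30.8 CPM (median 16.8) against 70.97 to 309.8 CPM (median 147). The subunit RELA overlapped (0.19 ± 0.09), and the inhibitor NFKBIA likewise (-0.62 ± 0.18).

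Interferon-stimulated genes had a wide spread among the SMAD4-negative clones. IFI27 ranged there from 18.4 CPM in library 3 to 1473 CPM in library 1, both labelled Panc1, and was at most 0.253 CPM in the SMAD4-positive libraries. IFI44, of the same list, was also lowest in library 3 with 12.5 CPM and was highest in library 21, labelled BxPC3, with 269.7 CPM. Despite this spread, neither gene overlapped between the groups. Of 37 members of the list, 10 were higher in the SMAD4-negative clones, 2 were higher in the SMAD4-positive clones and 25 did not separate (32.4% separating against 26.2% of all genes), and the median log2 difference was -1.44. HLA-E, an HLA class I chain, was among those higher in SMAD4-positive clones, at 2.16 to 7.02 CPM (median 3.76) and at most 0.0748 CPM in the SMAD4-negative libraries. Because HLA genes share long stretches of sequence, its estimate is uncertain. B2M, the partner of HLA class I chains, overlapped, with 138 to 531 CPM (median 227) against 32.6 to 286 CPM (median 65.2).

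HOX genes, which encode homeodomain proteins of positional identity in 4 clusters, were the list with the largest share higher in the SMAD4-positive clones among lists with at least 10 members tested. Of 24 tested, 15 were higher there and 3 in the SMAD4-negative clones (75.0% separating against 26.2% of all genes). The median log2 difference of the list was 1.99. The direction followed the cluster in part. All 8 members of the HOXC cluster that separated were higher in the SMAD4-positive clones, among them HOXC13 with 0.461 to 1.48 CPM (median 0.925) against 69.7 to 245 CPM (median 128) and HOXC10 with 4.15 to 13.6 CPM (median 9.12) against 78.5 to 130.4 CPM (median 107). HOXB2 was at 0.164 to 2.06 CPM (median 0.759) against 34.2 to 63.3 CPM (median 44.2), whereas HOXB7 of the same cluster overlapped. In the HOXA cluster HOXA10 was at 8.57 to 20.3 CPM (median 12.3) in the SMAD4-negative clones and at most 0.221 CPM in the others.

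Of 12 transcription factors of pancreas and endoderm tested, 4 separated (33.3% against 26.2% of all genes). GATA6, a factor of the classical subtype of pancreatic cancer, was at 34.2 to 65.2 CPM (median 48.8) in the SMAD4-negative and 0.105 to 3.03 CPM (median 0.4997) in the SMAD4-positive libraries, and its relative GATA4 was at 2.51 to 4.42 CPM (median 3.45) against 14.4 to 37.7 CPM (median 21.5). FOXA1 was higher in the SMAD4-negative clones (-3.23 ± 0.29), and FOXA2 overlapped (0.24 ± 0.12). Genes known from neurons and neural crest were measured in both directions. L1CAM, an adhesion molecule of axons, was at 0.777 to 4.18 CPM (median 2.29) in the SMAD4-negative and 451 to 1929 CPM (median 1086) in the SMAD4-positive libraries, a 457-fold ratio. MAP2 and synaptophysin (SYP) went with it, SYP with 0.333 to 1.23 CPM (median 0.629) against 10.4 to 21.6 CPM (median 13.8). NGFR, the neurotrophin receptor p75, was higher in the SMAD4-negative clones, with 5.49 to 137 CPM (median 14.4) against 0.619 to 3.38 CPM (median 1.85). Over this list, 6 of 13 were higher in SMAD4-positive and 3 in SMAD4-negative clones (69.2% separating against 26.2% of all genes).

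Genes of gemcitabine transport and metabolism separated about as often as all genes (26.2%), with 5 of 24 higher in SMAD4-positive clones, 1 higher in SMAD4-negative clones and 18 not separating. SLC29A1, the transporter ENT1 through which gemcitabine enters cells, was at 39.7 to 100.3 CPM (median 63.8) against 209 to 466 CPM (median 294). ABCG2, an efflux pump, was at 1.39 to 9.33 CPM (median 4.69) against 27.8 to 289 CPM (median 121). RRM2, the small subunit of ribonucleotide reductase, was at 75.04 to 174 CPM (median 139) against 259.8 to 697 CPM (median 409.9). CDA, which inactivates gemcitabine by deamination, was higher in the SMAD4-negative clones, at 7.34 to 25.3 CPM (median 11.8) against 0.137 to 4.28 CPM (median 0.625). The kinase DCK, which activates the drug, overlapped, and its log2 difference was -0.08 ± 0.07. The response of the single libraries to gemcitabine was not analysed here.

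Of 24 genes of DNA replication and mitosis, 3 separated (12.5% against 26.2% of all genes). MKI67 overlapped (0.44 ± 0.20), MCM2 of the replicative helicase was higher in the SMAD4-negative clones (-1.06 ± 0.12), and the spindle checkpoint kinase BUB1 in the SMAD4-positive clones (1.04 ± 0.09). Of 16 cell cycle inhibitors and p53 targets, 4 were higher in the SMAD4-positive clones, a share close to that of all genes, among them CDKN2C at 8.24 to 22.1 CPM (median 12.5) against 41.8 to 98.9 CPM (median 69.997). Of 12 housekeeping genes, 8.33% separated against 26.2% of all genes, and 11 did not, including GAPDH (-0.25 ± 0.08) and ACTB (0.54 ± 0.10). The exception was SDHA, a subunit of succinate dehydrogenase, at 244 to 539.8 CPM (median 414) against 74.5 to 199 CPM (median 117).

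Of 24 lysosomal genes, PSAP included, 6 separated, a share close to that of all genes. CTSS, a cathepsin, was at 27.9 to 134 CPM (median 60.4) in the SMAD4-negative and 0.651 to 9.11 CPM (median 1.93) in the SMAD4-positive libraries, and TPP1 was at 65.5 to 101 CPM (median 81.2) against 123 to 345 CPM (median 255). CTSD overlapped (1.24 ± 0.18). Among mucins and ductal secretory genes, 6 of 14 were higher in SMAD4-negative and 2 in SMAD4-positive clones (57.1% separating against 26.2% of all genes). ANXA10 had 0 counts in every SMAD4-positive library and 26.3 to 327 CPM (median 105) in the others, whereas MUC1 was higher in the SMAD4-positive clones, at 0.175 to 3.72 CPM (median 1.08) against 4.05 to 16.7 CPM (median 11.1). CDH5, known from endothelial junctions, was at 2.28 to 26.8 CPM (median 7.69) in the SMAD4-negative and at most 0.0931 CPM in the SMAD4-positive libraries. CD68 was at 5.70 to 31.6 CPM (median 11.4) against 49.8 to 159 CPM (median 71.1). The 8 endothelial markers together summed to 4.88 to 31.7 CPM in the SMAD4-negative and 0.636 to 4.71 CPM in the SMAD4-positive libraries, with 2 of 8 passing the filter. The 10 leukocyte markers summed to 6.24 to 42.8 CPM and 54.4 to 164.4 CPM, with 3 of 10 passing. Their part in the differences above was not tested.

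**Figure D4:**
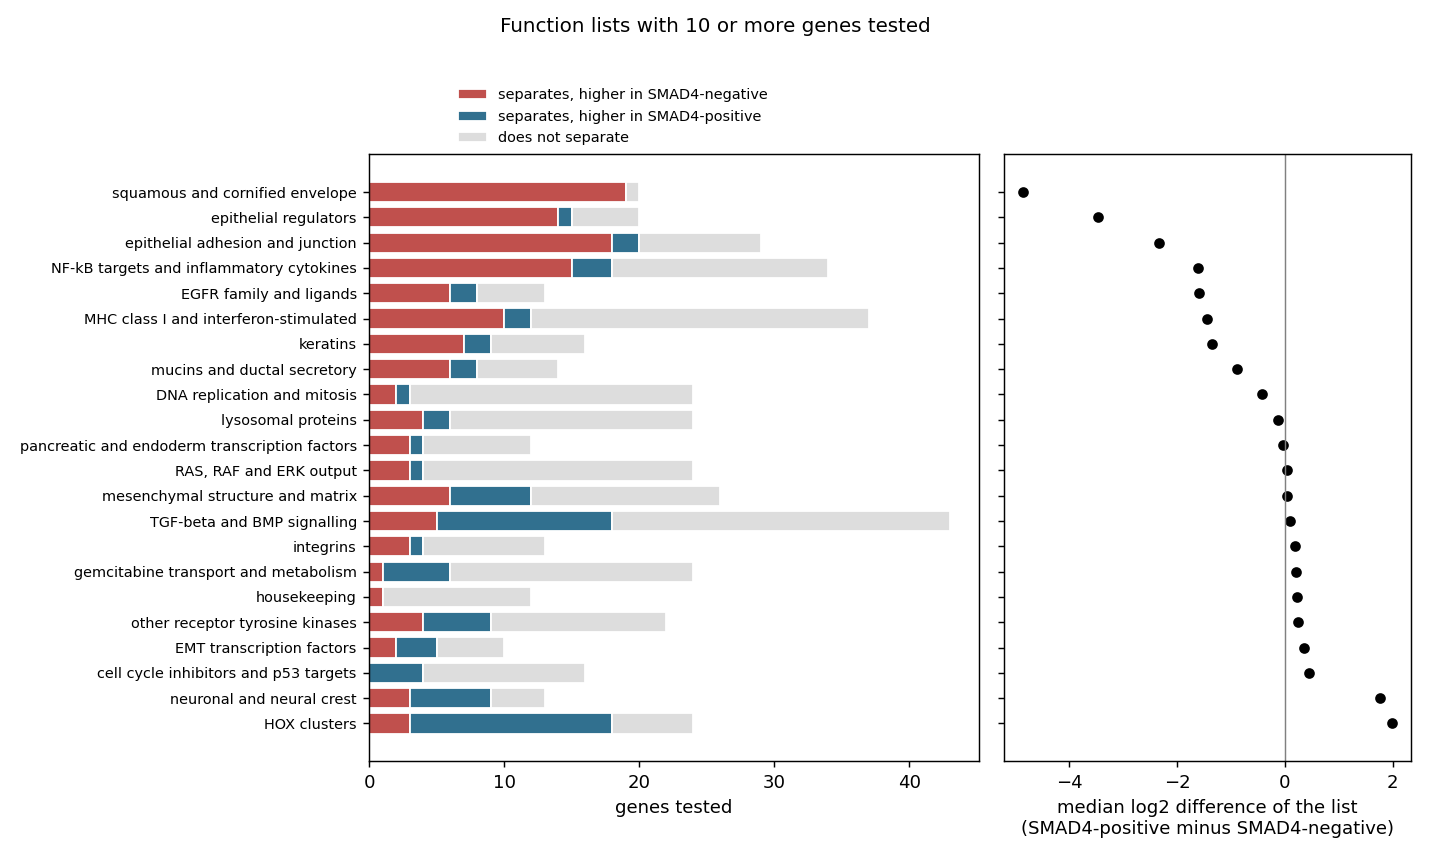
Number of genes tested in each function list with at least 10 such genes (left, bars divided by call) and the median log2 difference of the list (right, SMAD4-positive minus SMAD4-negative). The squamous list lies lowest with a median of -4.85 and the HOX list highest with 1.99.

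Other genes with the largest differences belonged to no list. In the SMAD4-positive clones these were ANPEP, the membrane aminopeptidase CD13, at 219.8 to 1708 CPM (median 699) and at most 1.20 CPM in the SMAD4-negative libraries, and CD81, a tetraspanin, at 224 to 411 CPM (median 251) and at most 0.553 CPM. CHD5, a chromatin remodeler, was at 206 to 383 CPM (median 278) and at most 1.40 CPM, and DLL3, an inhibitory Notch ligand, was at 152 to 293 CPM (median 225) and at most 0.576 CPM. ALPG, an alkaline phosphatase, varied widely among the SMAD4-positive clones, from 16.5 CPM in library 18 to 3060 CPM in library 17, both labelled BxPC3. It is nearly identical to ALPP, which makes its estimate uncertain. In the SMAD4-negative clones LCP1 (L-plastin), an actin-bundling protein, was at 267 to 785 CPM (median 380.5) and at most 0.228 CPM in the SMAD4-positive libraries. The water channel AQP3 was at 772 to 2168 CPM (median 1245) against 0.559 to 5.71 CPM (median 2.03). ALDH3A1, an aldehyde dehydrogenase, was at 175 to 1068 CPM (median 485) and at most 0.109 CPM, and COL4A6, a chain of basement membrane collagen, was at 253 to 1015 CPM (median 606) and at most 0.665 CPM.

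Genome position was not used to form the groups, and the neighborhood of silent genes was described next. Protein-coding genes with a median of at least 1 TPM in either group were put in genome order (GRCh38), which gave 13206 genes. A gene was called silent in a group when it was under 1 TPM in each library of that group and at a median of at least 1 TPM in the other. Apart from SMAD4, 452 genes were silent in the SMAD4-negative group and 688 in the SMAD4-positive group. Of these, 97 lay in 28 runs of at least 3 neighbors silent in the same group, 11 runs in the SMAD4-negative and 17 in the SMAD4-positive group. The longest held 6 genes. With silence set at under 0.1 TPM, only 6 runs with 23 genes remained. The runs with SMAD4, the serpins, IL1A and AKR1C1 were among those lost.

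SMAD4 stood in such a run, with its neighbors on both sides silent in the SMAD4-negative clones (chr18:50879080-51218333). ME2, a mitochondrial malic enzyme, was at 0.257 to 0.692 TPM in the SMAD4-negative and 55.5 to 98.2 TPM in the SMAD4-positive libraries. ELAC1, a tRNA processing enzyme, was at most 0.142 TPM against 4.01 to 7.51 TPM, and MEX3C, an RNA-binding ubiquitin ligase, was at most 0.0255 TPM against 9.13 to 16.4 TPM. SMAD2 and SMAD7, on the same chromosome outside this run, were expressed in both groups. PSAP likewise stood in a run of 5 genes silent in the SMAD4-negative clones (chr10:71396920-72089032), with CDH23 of hair cell links, the immune checkpoint gene VSIR, the sulfotransferase CHST3 and the proteoglycan SPOCK2. VSIR, like PSAP, had 0 counts in each of the 12 libraries, and CHST3 was at most 0.0508 TPM against 9.15 to 22.6 TPM. VSIR lies within the span of CDH23 on the other strand, and whether strand was used in counting is not given in the sources used here.

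A run of the same length, TMPRSS2 to ZBTB21 (chr21:41464300-42010387), was also silent in the SMAD4-negative clones and is named after its values were seen. There RIPK4, a kinase of epithelial differentiation, and ZBTB21 had a TPM of 0 in every SMAD4-negative library, against 31.9 to 66.8 TPM and 8.32 to 16.7 TPM. The protease TMPRSS2 was at 0 TPM in every SMAD4-negative library and varied from 0.286 to 133 TPM in the SMAD4-positive libraries. The genes of these 3 runs are not members of 1 family.

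Runs silent in the SMAD4-positive clones were often gene families. The longest ran from SPRR1A to S100A8 on chromosome 1 (chr1:152984081-153391073) and held 4 small proline-rich proteins of the cornified envelope and the calcium-binding proteins S100A9 and S100A8. All 4 SPRR genes were at 0 TPM in every SMAD4-positive library. In the SMAD4-negative libraries SPRR1B was at 0.489 to 18.02 TPM, SPRR1A was at 0 TPM in 1 library and 18.9 TPM in another, and S100A9 was at 16.1 to 237 TPM. A run of 5 serpins on chromosome 18 (chr18:63476958-63903888) comprised SERPINB5 (maspin) at 51.8 to 99.5 TPM and SERPINB2 at 21.1 to 241 TPM in the SMAD4-negative libraries, with SERPINB13, SERPINB3 and SERPINB7 at lower levels. None of the 5 exceeded 0.169 TPM in a SMAD4-positive library. IL1A, IL1B, IL37 and IL1RN formed a run on chromosome 2, AKR1C1 to AKR1C3 on chromosome 10, and UGT1A10 to UGT1A1 on chromosome 2, all named after their values were seen. UGT1A10 was at 108.5 to 503.8 TPM in the SMAD4-negative libraries and at most 0.037 TPM in the SMAD4-positive libraries. Members of the UGT1A, AKR1C, SPRR and serpin families share sequence, and UGT1A genes share exons, so the division of reads among them is uncertain.

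**Figure D5:**
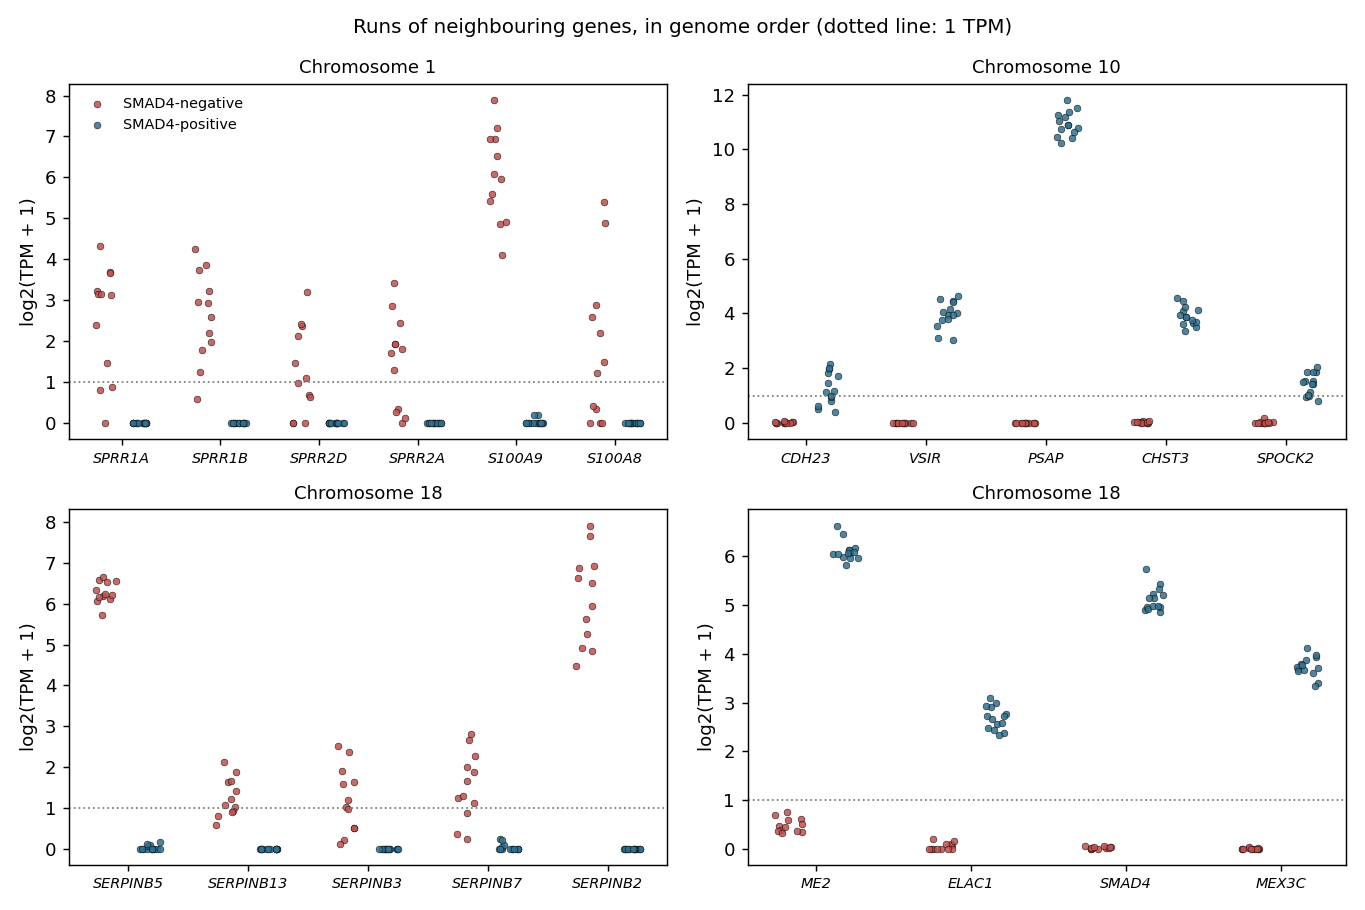
Level of each gene in 4 runs of neighboring genes, as log2(TPM + 1) with 1 point per library, in genome order from left to right. The runs on chromosome 1 and the serpins on chromosome 18 are silent in the SMAD4-positive libraries, and the runs with PSAP and with SMAD4 are silent in the SMAD4-negative libraries.

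Separating genes were not spread evenly over the chromosomes. Among 13567 protein-coding genes, 12.3% were higher in the SMAD4-positive and 13.4% in the SMAD4-negative clones. On chromosome 9, 131 of 543 genes (24.1%) were higher in the SMAD4-negative and 51 (9.39%) in the SMAD4-positive clones. On chromosome 13 these were 43 (19.4%) and 11 (4.95%) of 222. On chromosome 8 the shares were 23.1% and 10.2% of 471 genes, and on chromosome 4 they were 20.8% and 7.84% of 485. The opposite was seen on chromosome 18, with 42 of 187 (22.5%) higher in the SMAD4-positive clones and 20 (10.7%) in the SMAD4-negative clones. Chromosome 7 had 107 of 631 (16.96%) against 55 (8.72%). In the same order, chromosome 12 had 19.9% against 11.8% of 704 genes and chromosome X had 18.6% against 11.2% of 456. The chromosomes named here were chosen after their values were seen. Genes expressed over 10 CPM in both groups moved in the same direction. Their median log2 difference was -0.53 on chromosome 9 (347 genes) and -0.53 on chromosome 13 (146 genes), 0.38 on chromosome 7 (390 genes) and 0.05 over all chromosomes (8548 genes). DNA copy number was not measured in these files, and its part in these differences was not tested.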

How the data were processed

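Poly(A)-selected, strand-specific mRNA libraries of 26 SCDCLs, 1 per clone, were analysed. The authors deposited estimated counts and TPM per gene, made with kallisto 0.46.1 against Ensembl transcripts of GRCh38. The counts are those that tximport derives from TPM with its lengthScaledTPM setting, so they need not be whole. The table also holds the authors' mean transcript lengths and resampled estimates. Whether kallisto used strand is not given in the sources used here. Those columns, 806 in number, were not used. Gene positions came from GENCODE 44 (GRCh38), which matched 36315 of 41078 genes by identifier.

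Libraries were grouped by SMAD4 at a threshold of 1 TPM. The groups, members and gene lists were chosen with earlier results of these data known. Estimated counts were converted to CPM with TMM factors, genes were kept where either group averaged 1 CPM or more, and values were taken as log2(CPM + 1), which understates the change of low genes. Because SMAD4 made the groups, no test was run between them. The interaction of group and label was tested on rounded estimated counts with edgeR's quasi-likelihood test (edgeR 4.0.16, R 4.3.3) and, as alternatives, with DESeq2 1.42.0 and limma 3.58.1. On simulated data for the interaction, run on 17455 genes, 39% of 2-fold and 78% of 4-fold changes were recovered, with 5 false calls. Each fold was given to 100 genes drawn only from those above a minimum mean count. Recovery for lower genes was not measured. Values were summarised in Python 3.11.15 (numpy 2.4.6, pandas 2.3.3) and drawn with matplotlib 3.10.9.

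Genes were named by rule: the markers, the 10 largest differences in each direction where the higher group averaged 10 CPM or more, up to 2 members of each list in each direction and the list's most similar member, the members of the 3 longest runs, and a few components of the TGF-beta pathway, among them SMAD2, SMAD3, SMAD7, TGFBR1 and TGFBR2. Some genes that the rule names are not reported here. A fold is the ratio of mean CPM, and a group at 0 counts was set to a floor of 3 counts per library, which covers counting error only. Alternatives were other scalings, pseudocounts, filters and thresholds, the deposited TPM, and each library left out in turn.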

Additional observations from a re-analysis of the deposited data

How the results depend on the processing

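A log2 difference of at least 2 in place of 1 left 1862 separating genes, 825 higher in the SMAD4-positive and 1037 in the SMAD4-negative clones, because the criterion is stricter. With a pseudocount of 5 the count was 2849, and with the deposited TPM 3794, of which 3613 were shared with the 3954. The interaction with the label gave 15 genes with DESeq2 against 0 with edgeR, and the cause was not tested. Runs fell to 6 with 23 genes when silence meant under 0.1 TPM, which ended the runs with SMAD4, the serpins, IL1A and AKR1C1. They fell to 8 with 26 genes when a median of at least 5 TPM was required, which ended the serpin and IL1A runs and left 3 genes each of the SPRR and PSAP runs. When single libraries were omitted, there were 3961 to 4051 separating genes (1947 to 2019 higher in SMAD4-positive, 2005 to 2081 in SMAD4-negative clones), 214 to 220 listed genes, 4715 to 4854 genes within the BxPC3 label, 4525 to 4636 within the Panc1 label and 3781 to 3871 within both. It gave 28 to 32 runs with 96 to 110 genes. The interaction then called 0 to 2 genes, SDK2 without library 3 and EML1 and ZNF569 without library 4. More genes were higher in SMAD4-negative than in SMAD4-positive clones, but with a pseudocount of 5 these were 1419 and 1430, and with a minimum mean of 10 CPM 1429 and 1504. The median difference over all genes was -0.01 with DESeq2 size factors. Under other scalings, pseudocounts or TPM, 201 log2 differences of named genes moved by more than 1 SD and 464 did not, and 25 list medians moved and 95 did not. Differences and list medians near 0, such as that of the mesenchymal list, changed sign under some alternatives. No paired analysis was possible because each library number occurs once and the groups share none. The spread is between clones, and low counts limit genes near 1 CPM.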
